A study of Caenorhabditis elegans with 12 samples.

Results

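KLF-1 binding was examined at proximal promoters, the DNA that lies just ahead of a gene's start. A proximal promoter peak was a ChIP-seq peak with an assigned gene whose smallest gap to any gene assigned to it was 1 to 2000 bp, counted from the peak edge to the nearer end of the gene. Peaks that overlapped any assigned gene were left out, and no threshold was set on enrichment or p-value. The 6 peak lists held 573 such peaks among 3116 peaks in all, of which 1652 had an assigned gene. Of the others with a gene, 633 overlapped it and 446 lay more than 2000 bp away, and the latter are called distal here.

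The WT animals were of the N2 strain and the mutants carried the *isp-1(qm150)* and *ctb-1(qm189)* alleles, and the transgene *Is[pvha-6::klf-1-yfp]*, which encodes KLF-1 fused to YFP, was present in both strains. These genes encode the Rieske iron-sulfur protein and cytochrome *b*, subunits of respiratory complex III. The *vha-6* promoter drives the fusion protein in the intestine, while chromatin came from whole worms on day 1 of adulthood, raised on HT115 bacteria with the L4440 plasmid. Each strain gave 3 ChIP libraries, made with GFP-Trap, an antibody fragment on beads that binds GFP and YFP, and 3 input libraries. Peaks were called in each ChIP library against input, and no ChIP library of animals without the tagged protein was analysed here. Whether libraries of 1 strain were grown as separate cultures is not stated, so that p-values measure the spread between these libraries.

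KLF-1 belongs to the Krüppel-like factors, transcription factors that bind GC-rich and CACCC-type elements through zinc fingers at their carboxy terminus. In *C. elegans* neighbouring genes are often transcribed away from a shared stretch of DNA, called here a divergent pair, or together in an operon. Many transcripts also exchange their own first bases for a spliced leader, so that an annotated gene start can lie downstream of the point at which transcription begins.

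All 2119 pairs of a peak and a gene that it did not overlap had the gene's start facing the peak, and the largest gap in the lists was 4886 bp. In the lists used here, none of the 607 peaks on chromosome III carried an assigned gene, although 140 of them overlapped a protein-coding gene of the RefSeq table. Chromosome III, with 259 of the 1218 merged regions, could therefore contribute no proximal promoter peak. The other chromosomes contributed 108 (I), 101 (II), 122 (IV), 122 (V) and 120 (X). By the coordinates of the RefSeq table, 23 of the 573 peaks (4.01%) overlapped a protein-coding gene.

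Proximal promoter peaks made up a larger share of the peaks in every *isp-1;ctb-1* library than in any WT library. The WT libraries held 78, 97 and 44 of them and the mutant libraries 175, 68 and 111 (73.0 ± 26.9 against 118 ± 53.8, SD, n = 3 each), and these ranges overlapped (two-sided exact permutation test, p = 0.3, adjusted p = 0.39). As a share of all peaks of the library they were 13.5%, 14.6% and 14.5% in WT and 28.2%, 17.6% and 19.6% in *isp-1;ctb-1*. As a share of peaks with an assigned gene they were 28.2%, 30.2% and 29.3% in WT and 44.0%, 34.9% and 35.7% in *isp-1;ctb-1*. Neither share overlapped between the strains, and both tests gave p = 0.1, the smallest that an exact permutation of 3 libraries against 3 allows (two-sided, adjusted p = 0.186). The first share differed by 7.62 percentage points between the means, by 4.42 without *isp-1;ctb-1* replicate 1 and by 10.8 with chromosome III left out. Without that replicate the difference in number fell from 45 to 16.5 peaks, and without *isp-1;ctb-1* replicate 2 it was 70.

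The fold enrichment over input was low throughout. Its median over proximal promoter peaks was 1.84, 1.82 and 1.66 in WT and 1.99, 1.68 and 1.93 in *isp-1;ctb-1*, and the highest value in any library was 2.99. At the threshold that the study states, a fold enrichment over 1.5 with a p-value under 0.05, 135 proximal promoter peaks remained, where 21.3% of all peaks with an assigned gene passed. They were 33, 33 and 18 in WT and 29, 1 and 21 in *isp-1;ctb-1*, so that at this threshold the difference in the mean number (*isp-1;ctb-1* minus WT) was -11, the opposite direction to that of all deposited peaks. The shares given above and the share of divergent peaks given below also changed direction there. Peaks without an assigned gene have no p-value and drop out at this threshold, so that the shares given above become the same quantity. With *isp-1;ctb-1* replicate 2 left out as well, the difference in number was -3, while the shares given above (3.21 percentage points) and the divergent share (7.24 points) had the direction of all deposited peaks. The peak lists hold no read depth, and the study gives more uniquely mapped reads for every mutant ChIP library than for any of WT (taking a strain number listed there for a misprint), so that depth and strain cannot be told apart in any difference between the strains.

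The median gap to the gene was shorter in each *isp-1;ctb-1* library than in any WT library. It was 1020, 966 and 1343 bp in WT and 246, 646 and 550 bp in *isp-1;ctb-1*. Every *isp-1;ctb-1* median was thus below every WT median, and the means were 1110 ± 204 bp and 481 ± 209 bp (SD, n = 3 each, two-sided exact permutation test, p = 0.1, adjusted p = 0.186). Leaving out each library in turn gave differences (*isp-1;ctb-1* minus WT) between -712 and -512 bp, and at the stated threshold the difference was -304 bp (exact permutation test, p = 0.7). The strains differed most in the first 250 bp before the gene. This interval held 7, 7 and 2 peaks in WT (8.97%, 7.22% and 4.55% of the proximal promoter peaks) and 89, 17 and 34 in *isp-1;ctb-1* (50.9%, 25% and 30.6%). Between 1001 and 2000 bp the shares were 50%, 48.5% and 65.9% in WT and 18.3%, 33.8% and 34.2% in *isp-1;ctb-1*.

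**Figure D1:**
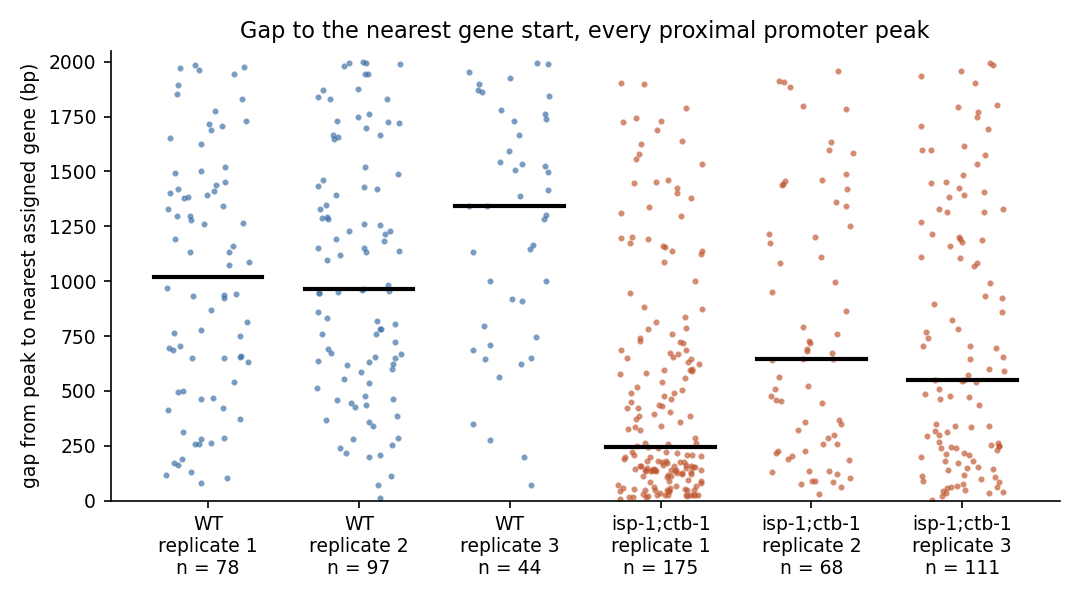
Gap in bp from each proximal promoter peak to the nearest assigned gene, 1 point per peak, by ChIP library, with the number of peaks below each name and a black line at the median. The points of *isp-1;ctb-1*, above all replicate 1, crowd below 250 bp, and the 3 *isp-1;ctb-1* medians (246, 646 and 550 bp) lie below the 3 WT medians (1020, 966 and 1343 bp).

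Peaks near the gene and peaks far from it differed in other ways within *isp-1;ctb-1*. The 140 *isp-1;ctb-1* peaks within 250 bp had a median length of 261 bp and a median fold enrichment rank at the 73.3 percentile of their library, while the 93 peaks at 1001 to 2000 bp had a median length of 334 bp and a median rank at the 42.1 percentile. Only 21 of the 140 near peaks (15.0%) lay in a region that also held a WT peak, against 61 of the 93 far ones (65.6%). By library the near peaks of such regions were 7 of 89, 7 of 17 and 7 of 34, and without replicate 1 they were 14 of 51 (27.5%), against 52 of 61 far ones (85.2%). In WT the 16 peaks within 250 bp ranked at the 70.1 percentile and the 115 peaks at 1001 to 2000 bp at the 43.5 percentile, but the near ones were the longer ones there (548 against 462 bp), and 14 of the 16 shared a region with *isp-1;ctb-1*. These values describe the peaks and were not tested, since peaks of a library are not replicates.

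At a divergent pair the gap is the smaller of those to the genes on either side, which by itself favours short gaps. The share of peaks between divergent genes was 57.9% within 250 bp and 26.9% at 1001 to 2000 bp in *isp-1;ctb-1*, and 50% and 22.6% in WT, given without a test. Of the 573 peaks, 243 had a single assigned gene, 218 lay between divergent genes and 112 had several genes without a divergent pair. The divergent share was 26.9%, 28.9% and 31.8% in WT and 47.4%, 41.2% and 39.6% in *isp-1;ctb-1*, with no overlap between the strains (means 29.2 ± 2.46% and 42.7 ± 4.13%, SD, n = 3 each, two-sided exact permutation test, p = 0.1, adjusted p = 0.186). The median gap of divergent peaks was 240 bp in *isp-1;ctb-1* and 760 bp in WT, and that of peaks with a single gene was 633 and 1163 bp. In 118 of the 218 divergent peaks a gene lay within 2000 bp on either side, and counted in this way the shares were 11.5%, 14.4% and 9.09% in WT and 29.7%, 17.6% and 24.3% in *isp-1;ctb-1*. The share of divergent peaks met by another library of the strain differed from that of peaks with a single gene by -1.09 percentage points on average over the 6 libraries, and was the higher in 2 of them (two-sided exact sign-flip permutation test, p = 0.625, adjusted p = 0.625).

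Proximal promoter peaks ranked above distal peaks in fold enrichment in all 3 mutant libraries and in 1 of the 3 WT libraries. The median rank of proximal promoter peaks was at the 58.1, 63.5 and 65.9 percentile of the *isp-1;ctb-1* libraries and that of distal peaks at the 22.7, 29.8 and 29.6 percentile, which left differences of 35.3, 33.7 and 36.4. In WT the ranks were 46.6, 43.9 and 46.7 for proximal promoter and 46.1, 47.7 and 53.0 for distal peaks, with differences of 0.52, -3.83 and -6.27. The difference between the strains gave p = 0.1 in a two-sided exact permutation test, the smallest possible (adjusted p = 0.4 over 8 such tests), and over all 6 libraries proximal promoter peaks ranked 16.0 percentile points higher (exact sign-flip permutation test, p = 0.219, adjusted p = 0.316). Against peaks that overlapped their gene, the rank of proximal promoter peaks differed by -4.82 on average and was the higher in 1 of 6 libraries (exact sign-flip permutation test, p = 0.188, adjusted p = 0.305).

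Proximal promoter peaks were shorter than distal peaks in 6 of 6 libraries. Their median lengths were 463, 400 and 508 bp in WT and 275, 321 and 293 bp in *isp-1;ctb-1*, against 476, 475 and 515 bp and 352, 391 and 427 bp for distal peaks. The mean difference was -62.8 bp, and the two-sided exact sign-flip permutation test gave p = 0.031, the smallest that 6 libraries allow, with an adjusted p of 0.135 over the 13 tests made. At the stated threshold the difference was 223 bp in the other direction (exact sign-flip permutation test, p = 0.688). Compared with peaks that overlapped their gene, proximal promoter peaks differed in median length by 96, 60 and 50 bp in WT, and by -58, -32.5 and -12 bp in *isp-1;ctb-1*, where they were the shorter ones.

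**Figure D2:**
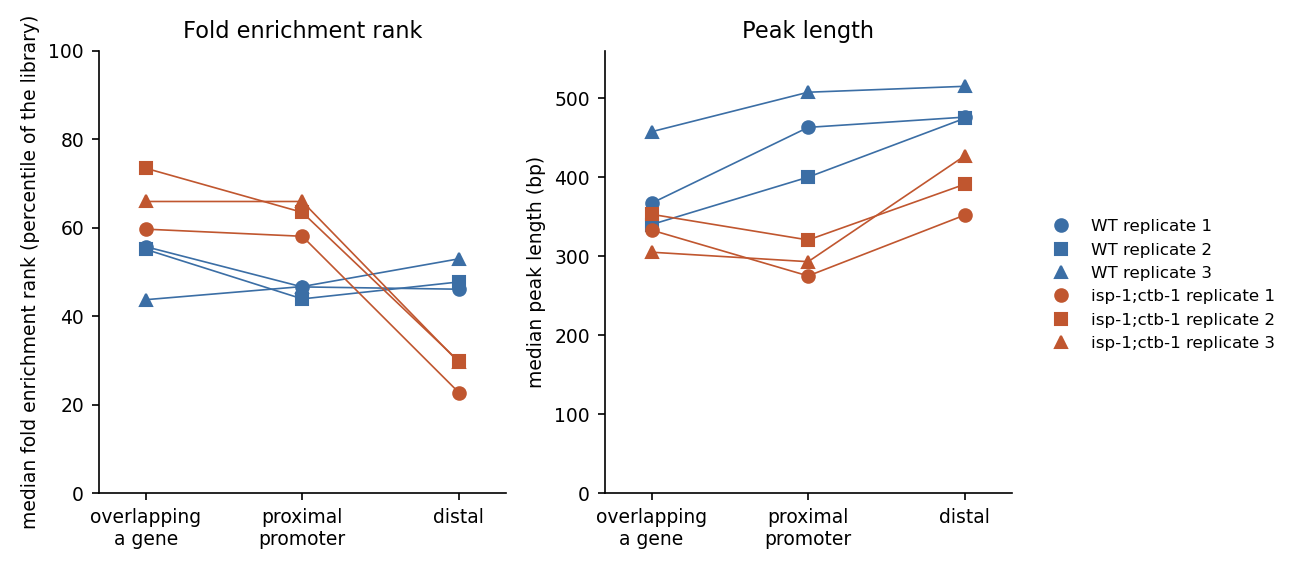
Median fold enrichment rank as a percentile of all peaks of the library (left) and median peak length in bp (right) for peaks that overlap a gene, proximal promoter peaks and distal peaks, with a line per ChIP library, WT in blue and *isp-1;ctb-1* in orange. Distal peaks of *isp-1;ctb-1* rank at the 22.7 to 29.8 percentile, below the proximal promoter peaks of the same libraries, and in 6 of 6 libraries proximal promoter peaks are shorter than distal peaks.

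Overlapping peaks of the 6 libraries (1 bp or more) were joined into merged regions, and 277 of the 1218 regions held a proximal promoter peak. Of these, 60 had peaks of both strains, 55 of WT only and 162 of *isp-1;ctb-1* only. A peak in at least 2 of 3 libraries of each strain was found in 33 regions (11.9%), where the same held for 15.1% of all merged regions and for 12.8% of the 716 regions with an assigned gene. Peaks in all 6 libraries were found in 15 regions (5.42%, against 7.06% of all regions and 5.59% of those with an assigned gene). Peaks in all 3 mutant libraries and no WT library were found in 18 (6.50%, against 4.93% and 5.87%), and peaks in all 3 WT libraries and no *isp-1;ctb-1* library in 5 (1.81%, against 3.12% and 2.65%). The shares were close to those of all regions with an assigned gene. Single-library regions were the most frequent, with 138 of the 277 (49.8%, against 48.5% and 51.0%), and 98 of them came from *isp-1;ctb-1* replicate 1. Without that library 177 regions with a proximal promoter peak were left, and the number held by *isp-1;ctb-1* was 58 instead of 100. Without *isp-1;ctb-1* replicate 3 it was 45, and the number held by both strains was 17 without *isp-1;ctb-1* replicate 2 and 16 without replicate 3.

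**Figure D3:**
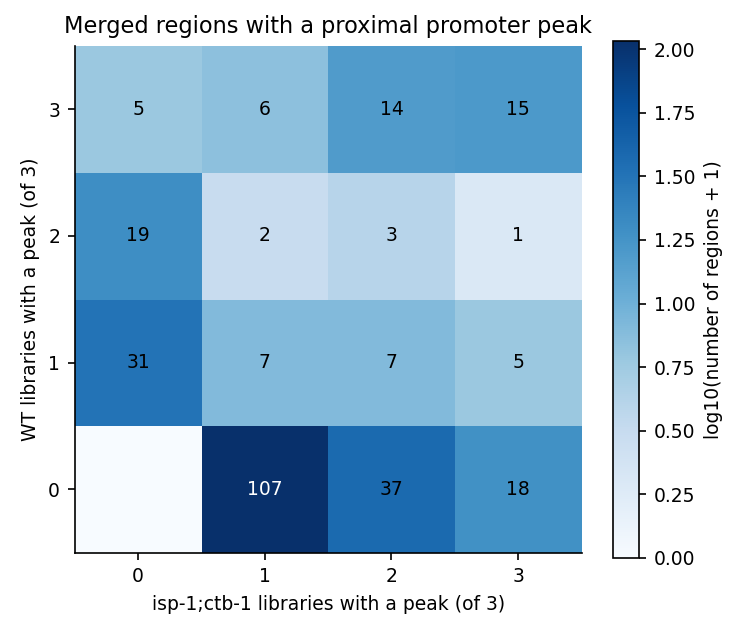
Number of merged regions with a proximal promoter peak by the number of WT libraries (vertical axis) and *isp-1;ctb-1* libraries (horizontal axis) that have a peak there, shaded by log10(number + 1). The fullest cells are the 107 regions with 1 *isp-1;ctb-1* library, the 37 with 2 and the 31 with 1 WT library, while 15 regions have a peak in all 6.

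The kinds of region differed in distance and in signal. Regions of *isp-1;ctb-1* only had a median gap of 209 bp, those of WT only 1096 bp, those with peaks of both strains 802 bp and those in all 6 libraries 1361 bp. The 15 regions in all 6 libraries were long, with a median of 1339 bp after merging, while regions of *isp-1;ctb-1* only had a median of 287 bp. A divergent pair was present at 81 of the 162 regions of *isp-1;ctb-1* only (50%), 14 of the 55 of WT only (25.5%) and 4 of the 15 in all 6 libraries (26.7%). The fold enrichment of the longest mitochondrial DNA peak of each library, in DNA outside the nucleus, was 2.06, 2.01 and 1.89 in WT and 1.33, 1.45 and 1.66 in *isp-1;ctb-1*. Peaks within 5% of this value made up 58 of the 87 proximal promoter peaks in regions of all 6 libraries (66.7%), 12 of 83 in regions of WT only (14.5%) and 1 of 226 in regions of *isp-1;ctb-1* only (0.442%), against 108 of all 573 (18.8%). Without such peaks 1 region in all 6 libraries was left and 15 held by both strains.

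Proximal promoter peaks recurred within a strain more often than peaks that overlapped a gene. The share that met a peak of another library of the strain was 76.9%, 67.0% and 100% in WT and 42.9%, 94.1% and 82.0% in *isp-1;ctb-1*. For peaks over a gene it was 66.1%, 54.6% and 95.5% in WT and 42.0%, 84.8% and 63.9% in *isp-1;ctb-1*. Proximal promoter peaks were thus higher in 6 of 6 libraries, by 9.34 percentage points on average (two-sided exact sign-flip permutation test, p = 0.031, adjusted p = 0.135), and by 4.22 points without *isp-1;ctb-1* replicate 3 (exact sign-flip permutation test, p = 0.313). Against distal peaks the difference was -6.07 points on average, and they were the higher in 2 of 6 libraries (exact sign-flip permutation test, p = 0.5, adjusted p = 0.542). Replicate 1 of *isp-1;ctb-1* stood apart here, with 42.9% of proximal promoter and 78.7% of distal peaks met.

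The peaks also recurred more within a strain than across strains. On average over the other libraries, a proximal promoter peak was met in 62.8%, 54.1% and 96.6% of cases within WT and in 31.4%, 73.5% and 57.2% within *isp-1;ctb-1*. Across strains the shares were 44.9%, 36.4% and 58.3% for the WT and 11.0%, 51.5% and 41.7% for the *isp-1;ctb-1* libraries. Within-strain recurrence was the higher in 6 of 6 libraries, with means of 62.6 ± 21.7% and 40.6 ± 16.4% (SD, n = 6, two-sided exact sign-flip permutation test, p = 0.031, adjusted p = 0.135). An overlap between libraries can count in the value of each of them, so that these 6 values are not independent, although the test takes them as such. The same holds for the other tests of recurrence. None of the 13 tests passed 0.05 after adjustment over all of them, and 3 did before it.

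**Figure D4:**
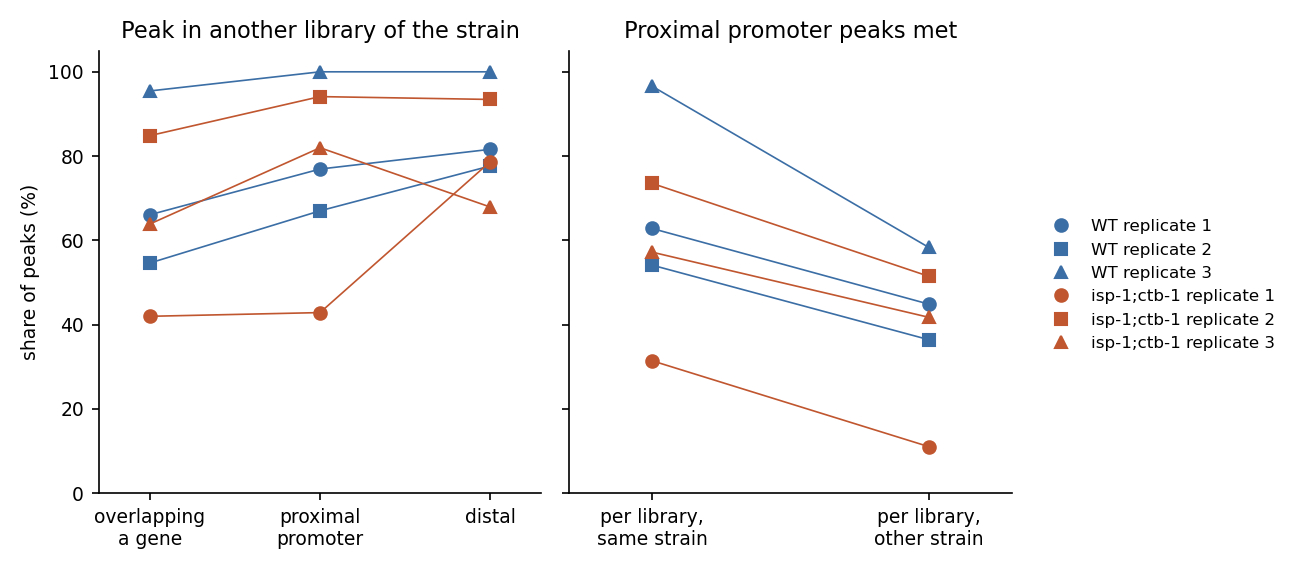
Share of peaks (%) that met a peak of at least 1 other library of the strain, by class of peak (left), and mean share of proximal promoter peaks met per other library of the same or the other strain (right), with a line per ChIP library. Proximal promoter peaks recurred more often than peaks over a gene in 6 of 6 libraries, and every line on the right falls, from a mean of 62.6% to 40.6%.

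The best ranked region with peaks in all 3 mutant libraries and no WT library lay at genes of the ribosome and the respiratory chain. This region, on chromosome IV at 4749862 to 4750191 (Ensembl 93 coordinates), had fold enrichments of 2.50, 2.2 and 2.67 in the mutant replicates and lay between *rpl-20*, a protein of the large ribosomal subunit, at 160, 130 and 84 bp and *Y17G9B.5* on the other side at 49, 103 and 86 bp. Behind *rpl-20*, at 825, 795 and 749 bp, was *cyc-2.1*, which encodes cytochrome *c*, the electron carrier between complexes III and IV. The second region (II, 11749256 to 11750187) lay 645, 1112 and 934 bp before *gpb-1*, a G protein beta subunit, with fold enrichments of 2.60, 2.13 and 2.19. The third (IV, 13887170 to 13887909) lay 203, 367 and 180 bp before the heterochronic gene *lin-66*, with 2.36, 2.04 and 2.53. The mean rank of these regions was at the 95.5, 91.3 and 91.2 percentile of the *isp-1;ctb-1* lists, and the p-values of the 9 peaks ranged from 0.018 to 0.114.

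Ribosomal protein genes were also assigned at 2 of the other 5 named regions of this kind. *rps-28*, a protein of the small ribosomal subunit, had peaks at 220, 320 and 312 bp (fold enrichment 2.43, 1.97 and 2.21), with *Y41D4B.4* assigned to the same region. *rpl-7*, of the large subunit, and *rab-11.1*, a GTPase of recycling endosomes, shared a divergent promoter on chromosome I (110518 to 110913), where *rpl-7* lay at 125, 204 and 243 bp and the fold enrichments were 2.25, 1.83 and 2.27. The region at *F58D5.5* had fold enrichments of 2.67, 2.18 and 1.93. At *iff-2*, a homologue of translation factor eIF5A, and at *Y106G6A.1* only the peak of replicate 3 was a proximal promoter peak, at 37 and 60 bp, and those of replicates 1 and 2 overlapped an assigned gene. Of the 24 peaks of the 8 regions, 19 had a fold enrichment over 2, and that of replicate 2 was the lowest in 7 of the 8.

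The 5 regions with peaks in all 3 WT libraries and none in *isp-1;ctb-1* had a median gap of 1344 bp. At all 18 regions of the opposite kind it was 216 bp. Their proximal promoter peaks had a median fold enrichment rank at the 15.5 percentile, against the 80.0 percentile at the 18. The 8 regions named above were picked from the 18 by rank, so that their fold enrichments are high by choice. The 5 WT regions were near *Y119C1B.3* (1159, 1152 and 1163 bp, fold enrichment 1.87, 1.88 and 1.65), *glr-5*, an ionotropic glutamate receptor subunit (1625, 1750 and 1763 bp, 1.84, 1.82 and 1.71), and *catp-1*, a cation-transporting ATPase (1086, 1228 and 1664 bp, 1.57, 1.63 and 1.49). The others were near *tbb-4*, a beta-tubulin (1852, 1872 and 1871 bp, 1.54, 1.69 and 1.42), and *B0348.5*, at the first bases of chromosome V (1329, 1348 and 1344 bp, 1.45, 1.46 and 1.36). None of these 15 peaks reached a fold enrichment of 2.

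**Figure D5:**
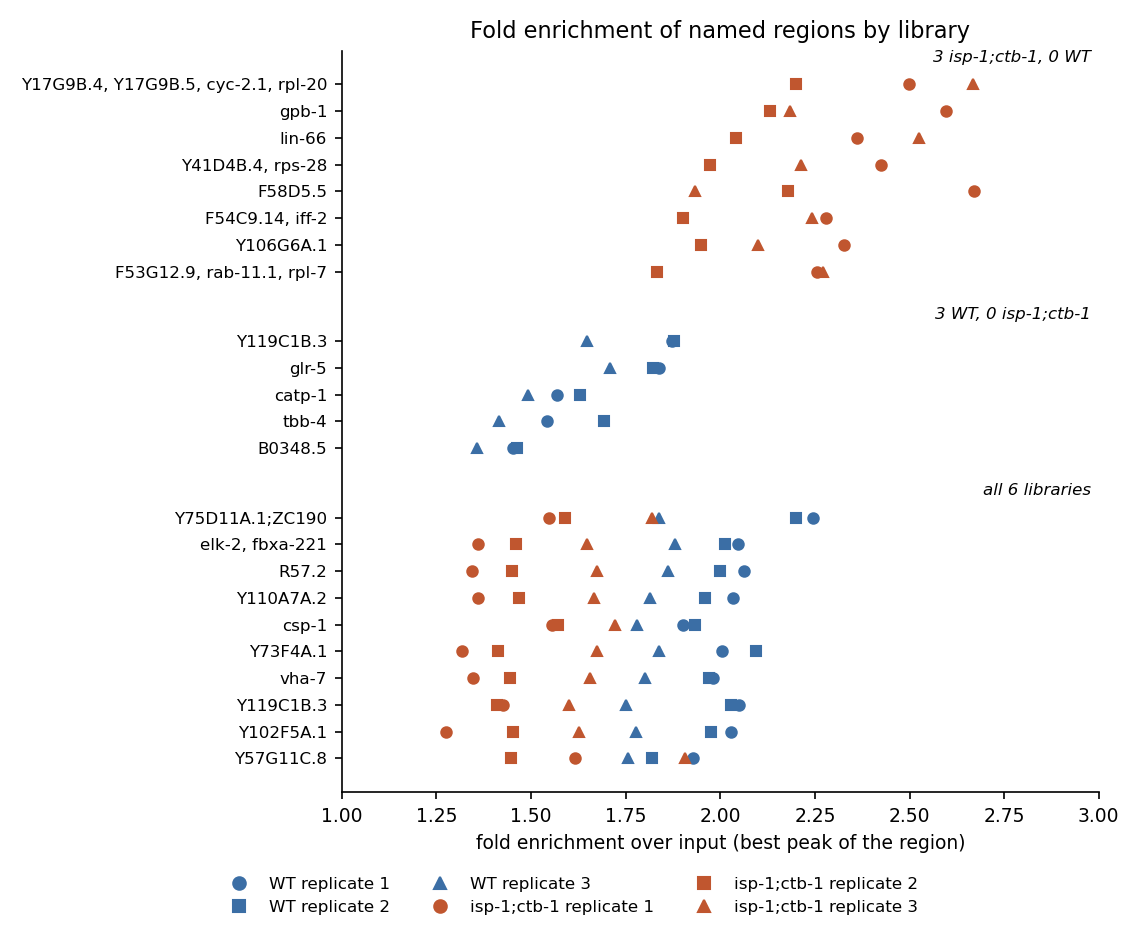
Fold enrichment over input (horizontal axis, linear, best peak of the region in each library) of the named regions, WT in blue and *isp-1;ctb-1* in orange, with a symbol per replicate and no symbol where a library has no peak. Regions of *isp-1;ctb-1* only (the 8 best ranked of 18) reach 1.83 to 2.67 and those of WT only (all 5) 1.36 to 1.88. In the regions of all 6 libraries WT symbols lie to the right of the *isp-1;ctb-1* symbols of the same region in all but *Y57G11C.8*.

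In 12 of the 15 regions with a peak in all 6 libraries (80%) every WT fold enrichment was above every *isp-1;ctb-1* one, as in 83.7% of all 86 merged regions with a peak in all 6. The first, on chromosome X (1752252 to 1755129), with 2 names in the lists (*Y75D11A.1* and *ZC190*), had fold enrichments of 2.25, 2.2 and 1.84 in WT and 1.55, 1.59 and 1.82 in *isp-1;ctb-1*. The region between *elk-2* and the F-box gene *fbxa-221* (X, 109568 to 114302) had 2.05, 2.01 and 1.88 in WT and 1.36, 1.46 and 1.65 in *isp-1;ctb-1*. The values of the latter region lay close to those of the mitochondrial DNA peak of the same libraries, as did those at *R57.2* (2.06, 2.00 and 1.86 against 1.35, 1.45 and 1.67) and *vha-7* (1.98, 1.97 and 1.80 against 1.35, 1.44 and 1.66). The fold enrichment is relative to each library's own input, and no test was made of its level between libraries. The remaining regions named here were those at *Y110A7A.2*, the caspase gene *csp-1*, *Y73F4A.1*, *Y119C1B.3*, *Y102F5A.1* and *Y57G11C.8*, where the gaps, in the libraries whose peak lay within 2000 bp, were 631 to 1998 bp.

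Divergent pairs were also found at regions that both strains held. Besides *elk-2* with *fbxa-221* and the pair at *csp-1*, the naming rule gave *W02A2.8* with *Y62E10A.3*, where a peak lay within 238 to 448 bp of a gene in all 6 libraries. At *irld-1* with *oac-12* the gaps were 650 to 951 bp in 5 libraries. The pairs at *T05F1.5* and at *Y48D7A.1* had peaks in 4 and 5 libraries. *isp-1;ctb-1* replicate 1 was without a peak at the last 3 of these pairs.

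By gene rather than by region, 347 genes lay 1 to 2000 bp from a proximal promoter peak, of which 340 were protein-coding, 4 were miRNA genes and 3 were lincRNA genes. Of the protein-coding genes 332 could be matched to the RefSeq table, which holds 19983 protein-coding genes, so that 1.66% of them had such a peak in at least 1 library. Off chromosome III it was 1.91% of 17341 genes. A peak in at least 1 library was found for 283 genes of the table in *isp-1;ctb-1* (1.42%) and for 107 in WT (0.535%), and one in at least 2 libraries for 60 genes in WT (0.3%), 118 in *isp-1;ctb-1* (0.591%) and 31 in both strains (0.155%). In all 6 libraries a proximal promoter peak was found for 9 genes, *Y57G11C.8*, *Y62E10A.3*, *Y62H9A.7*, *Y73F4A.1*, *csp-1*, *elk-2*, *fbxa-221*, *trf-2* and *zig-9*, which encodes a secreted protein with immunoglobulin domains.

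Of 78 cytosolic ribosomal protein genes, 8 (10.3%) had a proximal promoter peak in an *isp-1;ctb-1* library, against 1.42% of all genes, and 5 had it in at least 2 *isp-1;ctb-1* libraries. None had one in WT, where 0.535% of all genes did, so that a list of this length could be at 0 there without standing apart. The genes were *rpl-7*, *rpl-15*, *rps-24*, *rps-28*, *rpl-20* (*rpl-18A* in the RefSeq table), *rpl-1* (*rpl-10a*), *rpl-2* (*rpl-8*) and *rpl-41.2*, which the lists join with *rpl-41.1* in 1 name, and the peaks lay 58 to 320 bp from the gene. Of 37 translation factor genes 3 (8.11%) were met, each in *isp-1;ctb-1*, where 1.42% of all genes were. *eif-3.C*, a subunit of initiation factor eIF3, had peaks at 108, 189 and 142 bp in the 3 libraries (fold enrichment 2.18, 1.79 and 2.16), and *eif-3.B* and the elongation factor gene *eef-1A.2* had 1 each, in replicate 1. The 3 splicing factor genes met, of 37, had their peak in replicate 1 only, *rsp-1* and *rsp-2* in the same divergent promoter at 43 and 69 bp and *snr-1* at 298 bp. The number of genes met over all lists was 43, and 25 without *isp-1;ctb-1* replicate 1.

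Of 45 genes of the respiratory chain 3 (6.67%) were met, all in *isp-1;ctb-1* libraries, where 1.42% of all genes were. They were *cyc-2.1* in 3 libraries and, in replicate 1 alone, *sdha-1*, a succinate dehydrogenase subunit, at 59 bp and *ucr-2.2*, of complex III, at 120 bp. The complex I subunit genes *ndub-8* (50 bp, *isp-1;ctb-1* replicate 1) and *ndub-10* (1998 bp, *isp-1;ctb-1* replicate 3), whose symbols are not among those of the list, also had a peak each. Of 71 genes of the mitochondrial ribosome *mrpl-15* alone was met, at 395 and 462 bp in replicates 1 and 3 of *isp-1;ctb-1*. Of these 71 genes 23 lie on chromosome III, where no gene could be met, as do 10 of the 45 respiratory chain genes.

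Of 61 chaperone genes 6 (9.84%) were met, against 1.66% of all genes. *hsp-1*, the constitutive cytosolic Hsp70, had peaks at 44, 185 and 267 bp in *isp-1;ctb-1* (fold enrichment 2.42, 2.25 and 2.36), and 1 in WT replicate 1 at 256 bp with 2.06. *hsp-6*, the mitochondrial Hsp70, had 1 peak, in *isp-1;ctb-1* replicate 2 at 292 bp (fold enrichment 1.99), which lay nearer to *C37H5.5* on the other side, at 62 bp. The chaperonin genes *cct-7* and *cct-8* had 1 peak each. The small heat shock protein genes *hsp-16.11* and *hsp-16.49* shared a peak of *isp-1;ctb-1* replicate 1, at 18 and 56 bp with a fold enrichment of 2.00. A peak of WT replicate 2 was assigned to *hsp-16.49* at 782 bp with 1.92. By the RefSeq coordinates that WT peak overlapped *hsp-16.11*, at the end away from *hsp-16.49*. The lists join these genes with their near-identical copies *hsp-16.1* and *hsp-16.48*, so that the copy a read came from is uncertain. Outside the list by symbol, the Hsp70 genes *F44E5.4* and *F44E5.5* shared a divergent promoter with peaks in *isp-1;ctb-1* replicates 1 and 3, at 21 bp from the first gene in both and with fold enrichments of 2.28 and 2.24.

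The subunits of the V-ATPase, the proton pump of acidic compartments, were met at 5 of 20 genes (25%), against 1.66% of all genes. *vha-7* had peaks in 5 libraries at 1877 to 1914 bp, and *vha-19* in WT replicates 1 and 2 and *isp-1;ctb-1* replicate 3 at 1315 to 1434 bp. Peaks at *vha-8*, at 387 and 351 bp, and *vha-3*, at 816 and 911 bp (fold enrichment 2.03 and 1.95), came from *isp-1;ctb-1* replicates 1 and 2, and the peak at *vha-12*, at 240 bp, from replicate 1. The lists join *vha-3* with *vha-2* in 1 name. A gene could be met where another assigned gene lay nearer to the peak, as at *hsp-6*, *snr-1*, *rpl-2* and *ndub-10*. None of the gene counts of a list was tested, and the shares over all genes of the table are the only values they are read against. On chromosome III, where no gene could be met, lie 18 of the 78 cytosolic ribosomal protein genes and 11 of the 61 chaperone genes. Of the translation factor, splicing factor and V-ATPase genes 5, 10 and 3 lie there.

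Taken over all libraries together, gene families of detoxification and of the intestinal response to microbes were met at about the share of all genes (1.66%) or below it. Of 74 cytochrome P450 genes only *cyp-13A8* was met. It had 2 peaks of WT replicate 2, at 637 and 1994 bp with fold enrichments of 1.75 and 1.64. Neither passed the stated threshold. The count covers proximal promoter peaks alone, so that peaks over a gene and distal peaks at these genes are left out. The study itself reports KLF-1 binding directly upstream of several *cyp* genes from its ChIP-seq. *cyp-13A11*, which is named there, was not met by the rule used here. The low count therefore does not show that KLF-1 peaks are absent from *cyp* genes. None of 67 UDP-glucuronosyltransferase, 44 glutathione S-transferase and 33 proteasome genes was met. At the share of all genes, lists of this length could be at 0 without standing apart. On chromosome III, where no gene could be met, lie 6 of the cytochrome P450 genes and 3, 1 and 8 of the genes of these families. Of 239 C-type lectin genes 3 (1.26%) were met, each in all 3 WT libraries. In WT this was above the share of all genes, which was 0.535% in at least 1 library and 0.3% in at least 2. The nearest peaks at *clec-9* lay at 540, 554 and 564 bp in WT (fold enrichment 1.84, 1.73 and 1.55) and at 563 and 574 bp in *isp-1;ctb-1* replicates 2 and 3 (1.37 and 1.51). In WT, *clec-135* had peaks at 1259, 1257 and 1532 bp and *clec-175* at 457 to 1926 bp, each with 1 peak in *isp-1;ctb-1* replicate 3. Of 269 nuclear hormone receptor genes 4 were met, with *nhr-141* in 5 libraries. Of 72 core histone genes 4 (5.56%) were met, *his-11* and *his-14* by a peak of WT replicate 1 (fold enrichment 2.30) at 651 and 983 bp and *his-13* and *his-16* by a peak of *isp-1;ctb-1* replicate 1 (1.64) at 1276 and 582 bp, and the near-identical copies of these genes leave the source of the reads uncertain. Of 156 collagen genes *col-52* alone was met, by a peak of WT replicate 2 that lay inside the gene by the RefSeq coordinates. Of 27 zinc finger and KLF genes *ztf-7* was met, at 139 bp in *isp-1;ctb-1* replicate 1. None of the 5 genes listed for the injected plasmids (*klf-1*, *vha-6*, *rab-3*, *rol-6* and *unc-54*) was met, and 1 of them lies on chromosome III.

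The rule's limit of 2000 bp fell within a continuous range of gaps. Just inside it lay the peaks at *Y102F5A.1* (1998 bp), *catp-1* (1996 bp) and *cyp-13A8* (1994 bp), all of WT replicate 2. Just outside lay *Y57G11C.51* in *isp-1;ctb-1* replicates 1 and 3 (2004 bp in both) and *Y102F5A.1* in WT replicate 1 (2006 bp), so that the same region at *Y102F5A.1* was on either side of the limit in 2 WT libraries.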

How the data were processed

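The analysis started from the 6 deposited peak lists of KLF-1-YFP ChIP-seq, 1 per ChIP library. Per the study and its processing notes, the authors ran QuickNGS, with BWA for alignment, Ensembl 93 for genes, FastQC 0.10.1 for quality and MACS2 2.0.10 for peaks, which were called in each library without pooling. For BWA the version was not given in the sources used here. Deposited fold enrichment is a ratio over input, and the deposited p-value is given for peaks with a gene only, with no statement of what it tests. Each list was matched to its library by the strain and replicate number in its name. The deposited table of the authors' comparison of the strains, with a mean, fold and p-value per region, was not used. Input libraries have no file used here, and read depth per library is not in the lists.

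Peaks were classified by gap, ranked by fold enrichment within their list, and merged over 6 libraries at a shared 1 bp. Differences between strains were tested by a two-sided exact permutation test of 3 against 3 libraries, and differences within libraries by a two-sided exact sign-flip test over 6, with Benjamini-Hochberg adjustment over 13 tests. The regions named were the 10 best ranked in all 6 libraries, the 8 best in all 3 libraries of 1 strain alone (5 existed for WT), the 6 best divergent pairs held by both strains, up to 4 genes per list with peaks in at least 3 libraries, and 3 peaks on either side of the limit. The other list genes named had fewer peaks and were chosen after their values were seen. The proximal promoter rule and the 17 gene lists, set by gene symbol, were chosen with earlier results of these data known. List genes were matched to the RefSeq table of WBcel235 by symbol, by gene ID where the symbol differed, and by coordinates for 14 genes that the lists join with others in 1 name or leave without one. Alternatives were other peak thresholds, gap limits, gap measures and overlaps, long peaks or peaks at the mitochondrial DNA fold left out, each library left out, and a replicate block. Chosen after seeing the data were divergent genes both within 2000 bp, chromosome III left out, the stated threshold without *isp-1;ctb-1* replicate 2, and the mitochondrial DNA setting for results other than recurrence and regions. The scripts were tested on simulated peaks. Python 3.11.15, numpy 2.4.6, pandas 2.3.3, scipy 1.17.1 and matplotlib 3.10.9 were used. No genome sequence was used here.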

Additional observations from a re-analysis of the deposited data

Results flagged for a closer look

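The difference in median length between proximal promoter peaks and peaks that overlapped their gene pointed one way in every WT library and the other way in every *isp-1;ctb-1* library. It was 68.7 bp on average over the WT libraries, where proximal promoter peaks were the longer ones, and -34.2 bp over the *isp-1;ctb-1* libraries. The two-sided exact permutation test of the difference between the strains gave p = 0.1, the smallest that 3 libraries against 3 allow, with an adjusted p of 0.4 over 8 such tests. The median length of all proximal promoter peaks also differed between the strains (400 to 508 bp in WT, 275 to 321 bp in *isp-1;ctb-1*), and its part in this result was not tested.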

How the results depend on the processing

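The peak threshold changed more than any other choice tried. With a fold enrichment over 1.5 and p under 0.05 the differences between strains (*isp-1;ctb-1* minus WT) turned to -11 peaks per library, -5.53 percentage points for the share of all peaks and likewise -5.53 for the share of peaks with a gene, and -4.99 points for divergent pairs. The 2 shares are the same quantity at this threshold, since peaks without an assigned gene have no p-value and drop out. Against distal peaks the differences in length (223 bp) and recurrence (8.30 points) turned too. Recurrence against peaks over a gene (6.06 points) and within against across strains (13.4 points) no longer passed an unadjusted 0.05. Regions with a proximal promoter peak were 65, with 1 held by both strains, 32 by WT, 5 by *isp-1;ctb-1*, 0 in all 6 libraries, 0 in all of *isp-1;ctb-1* alone and 3 in all of WT alone, and 12 list genes were met. With *isp-1;ctb-1* replicate 2, which keeps 1 such peak, left out as well, the difference in number was -3 peaks, and the shares (3.21 points) and divergent pairs (7.24 points) did not turn. With a fold enrichment over 2, length (-3.67 bp) and recurrence (-11.9 points) against peaks over a gene turned, and length against distal peaks (-258 bp) and recurrence within against across strains (16.1 points) no longer passed. Regions were then 126, with 1, 6, 34, 0, 3 and 0 in the same order, and 23 list genes.

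With a gap of 1 to 1000 bp the rank against peaks over a gene turned (1.32 percentile points), length against distal peaks (-71.3 bp) and recurrence against peaks over a gene (5.42 points) no longer passed, 16 regions were held by both strains and 27 by WT, 6 were in all 6 libraries and 0 in all of WT alone. Gaps from the peak centre turned the length against peaks over a gene (-9.83 bp), and without peaks over 2000 bp the recurrence against peaks over a gene (7.72 points) no longer passed. Without peaks at the fold of mitochondrial DNA the recurrence against distal peaks turned (3.88 points), 15 regions were held by both strains, 1 was in all 6 libraries and 10 in all of WT alone. With a region held by 1 of 3 libraries 60 were held by both strains, 115 by WT and 222 by *isp-1;ctb-1*, and by 3 of 3 libraries 15, 40 and 39. An overlap of 50% of the shorter peak changed no count by over 1.5 times and no call.

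Without 1 library at a time the differences between strains were 16.5 to 70 peaks, 4.42 to 9.73 and 6.04 to 10.6 points for the 2 shares, -712 to -512 bp for the gap and 11.2 to 15.1 points for divergent pairs. Against peaks over a gene they were -6.38 to -3.54 in rank, 1.5 to 32.3 bp in length and 4.22 to 11.0 points in recurrence, and against distal peaks 11.9 to 20.4, -73.8 to -48.5 bp and -9.47 to -5.25 points. Recurrence differed by 17.0 to 25.4 points within against across strains and by -5.25 to -1.42 points for divergent peaks. Regions were 177 to 277, with 16 to 33 held by both strains, 38 to 65 by WT and 45 to 100 by *isp-1;ctb-1*, 14 to 29 in all libraries, 18 to 45 in all of *isp-1;ctb-1* alone, 5 to 20 in all of WT alone, and 25 to 43 list genes, the lowest without *isp-1;ctb-1* replicate 1. The lowest p of 5 libraries is 0.0625, so that no call could pass there. The number in all of WT alone was 9 without WT replicate 1, 20 without WT replicate 3 and 10 without *isp-1;ctb-1* replicate 3, the number in all of *isp-1;ctb-1* alone was 45 without its replicate 2, that in all libraries was 29 without its replicate 1, and that held by WT was 38 without WT replicate 2.

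Same-numbered libraries did not all deviate together over the 86 regions found in all 6 libraries (r = 0.32, 0.34 and -0.36 across regions). Between libraries of unlike number r ran from -0.70 to 0.53, so that these values do not settle whether the numbers pair the libraries. With the replicate number as a block the differences were 45 peaks, 7.62, 8.94 and 13.5 points and -629 bp as before, with p = 0.5 for the number and 0.25 for the others (exact sign-flip permutation test over 3 pairs, where 0.25 is the smallest possible). The KLF element in promoters, and its alternative with CACCC alone, were not run, because no sequence was used here.

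Low fold enrichment (medians of 1.66 to 1.99) and few libraries limit these results. Peak lists without read counts give no interval for a single peak, chromosome III adds no proximal promoter peak, and depth cannot be told apart from strain.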
